A study of Macaca mulatta with 39 samples.

Results

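The genes looked up by name were the structural genes MYH3, MYL1, ACTC1, MYH8, TNNC2 and DES and the transcription factor genes MYF5, MYOD1, MYOG and MYF6. Of these 10 genes, 8 had a probe set whose annotation names that gene alone, out of 14132 genes measured that way in cultured rhesus macaque cells. Each of the 8 had 1 probe set, and MYOG and DES are not analysed here. The arrays covered 13 cell sources in 3 kinds. The embryonic stem cells (ESCs) were of 2 lines, C3106, which is male, and C3806, which is female. The 8 teratoma cultures were fibroblasts explanted from tumours that the lines formed after injection into immune-compromised mice: TA31, TB31, TC31, TD31 and TE31 from C3106, and TA38, TB38 and TC38 from C3806. The 3 skin fibroblast cultures M032, M088 and M106p1 were grown from explants of animals that were parents of the lines. Every source had 3 arrays, which the labels call biological triplicates without saying what separated them. The sources used here do not give the mouse strain, the passage of the cultures or the medium. Each ESC line is 1 source, and each teratoma culture comes from 1 tumour.

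Skeletal muscle forms from paraxial mesoderm of the embryo. Its cells are committed by the basic helix-loop-helix factors MYF5 and MYOD1 and differentiate under MYOG and MYF6, and then fuse into fibres filled with sarcomeres, the repeating units of thick and thin filaments that shorten the muscle. Sarcomere genes are used in turn: MYH3 encodes the embryonic and MYH8 the perinatal myosin heavy chain of the thick filament, MYL1 an alkali light chain of that myosin, TNNC2 the calcium-binding troponin C of fast fibres on the thin filament, and ACTC1 the cardiac alpha-actin, which is also the main sarcomeric actin of early embryonic skeletal muscle.

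Of the 39 arrays, 36 entered the values below. The arrays labelled C3806c, M106p1f and TB31c were left out because their whole profiles were those of other sources. MYH3 is among the genes in which these arrays are known to differ from their labels, so the profiles were compared again over 13996 genes that excluded the muscle genes. Centred on each gene's mean, M106p1f correlated with its own source at r = -0.305 and with TD31 at 0.959, TB31c at -0.152 with its own source and 0.962 with M106p1, and C3806c at -0.149 with its own source and 0.892 with TC38. Of the 36 other arrays, 33 were closest to their own source and 3 ESC arrays were closest to the other ESC line, and their lowest correlation with their own source was 0.701. Array medians ran from 6.25 to 6.48 on the log2 scale. The number of arrays and cultures limits the precision.

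The mean signals of fibroblast and pluripotency genes followed the labels, though single genes did not all do so. The mean log2 signal of 10 fibroblast genes was 11.36 to 11.71 over the teratoma cultures, 11.37 to 11.48 over the skin cultures and 7.23 to 7.25 in the ESC lines. That of 9 pluripotency genes was 11.51 to 11.67 in the ESC lines and 5.13 to 5.99 in the fibroblast cultures. SOX2, on that list, nevertheless read 7.90 to 10.90 in TA31, TA38, TB38, TC31 and TC38. The gap between the 3′ and 5′ actin control probe sets, a sign of RNA integrity, was 0.02 to 0.78 on the teratoma arrays and 0.05 to 0.59 on the skin arrays, and reached 3.89 on the ESC array C3806a. In bulk RNA, fewer cells of a type and less RNA per cell cannot be told apart.

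The regulators MYF5 and MYF6 were high in 2 teratoma cultures, TB31 and TD31, both from the male line. MYF5, the earliest of the myogenic factors in the embryo, read 9.47, 9.37 and 9.53 on the TD31 arrays and 8.17 and 8.63 on the TB31 arrays. On the other 31 arrays it lay between 3.52 and 4.21, with a median of 3.75. No array of any other source overlapped with these 2 cultures, and the gap from TB31 down to the next source was 3.96 log2 units. The 11 other source means ran from 3.59 in TE31 to 4.16 in TB38, and neighbours in that order overlapped in their arrays.

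MYF6, a factor of differentiating and mature fibres, was also highest in TD31, TB31 and TB38, in that order, while the lower sources were ordered differently. Its signal was 7.51, 7.15 and 7.27 in TD31 and 6.79 and 7.13 in TB31, and 3.90 to 4.99 on the other 31 arrays, whose median was 4.27. TD31 and TB31 were separated by 0.02 log2 units in MYF6, against 0.74 in MYF5, where TD31 was again the higher. MYF5 and MYF6 are next to each other in the rhesus RefSeq gene table, with 0 coding genes between them. Over the 13 source means they correlated at r = 0.98, a value set largely by TB31 and TD31.

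MYOD1, which drives cells into the muscle programme, differed less. It read 7.56 and 7.58 in TB31 and 6.02, 6.02 and 6.54 in TD31. The remaining arrays lay between 5.01 and 6.06. TB31 thus stood 1.01 log2 units above the next array, while TD31 overlapped with TA38, whose arrays read 5.81, 5.85 and 6.06.

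**Figure D1:**
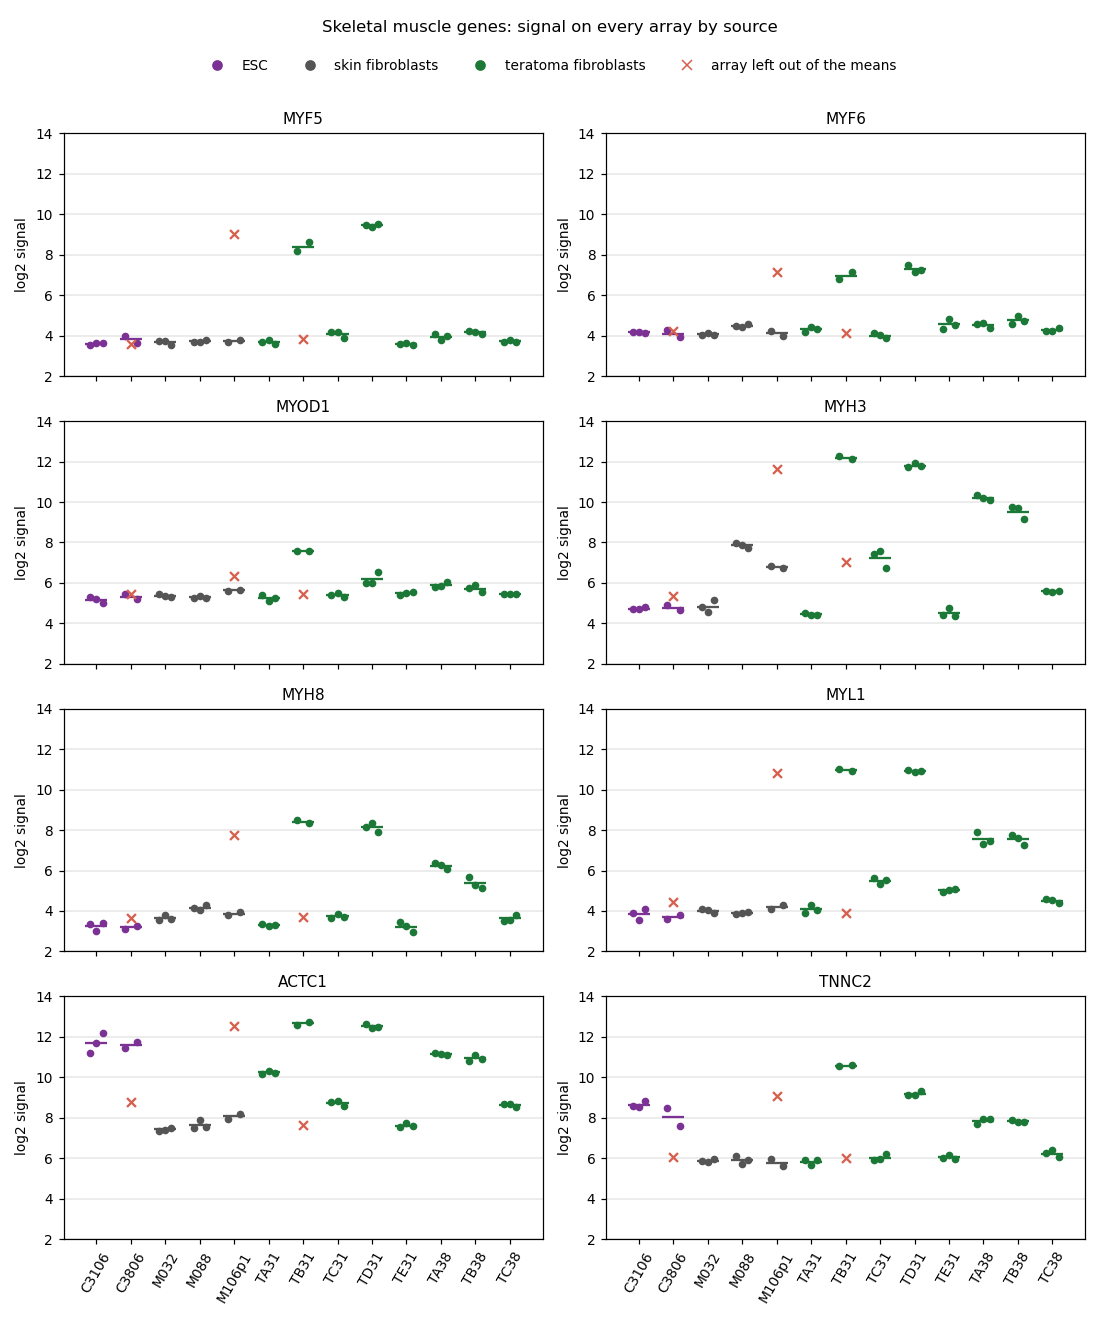
Log2 signal of the 8 muscle genes on each array (points) in the 13 sources (x axis), with a line at the mean of the arrays used and crosses for the 3 arrays left out. MYF5 and MYF6 are high in TB31 and TD31, the myosin genes also in TA38 and TB38, and ACTC1 and TNNC2 also in the ESC lines C3106 and C3806.

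The sarcomere genes were high in more cultures than the regulators. MYH3 read 12.25 and 12.12 in TB31, 11.72, 11.91 and 11.77 in TD31, 10.33, 10.22 and 10.12 in TA38, and 9.75, 9.68 and 9.17 in TB38. These 4 cultures did not overlap with each other or with any source below. In TC31 the 3 arrays read 7.43, 7.56 and 6.75, next to the skin cultures M088 at 7.95, 7.86 and 7.72 and M106p1 at 6.83 and 6.75. The skin cultures themselves were far apart in MYH3, since M032 read 4.81, 4.55 and 5.14. TC38 lay at 5.61, 5.55 and 5.62, below M088 and M106p1 and above M032. At the bottom, M032, both ESC lines, TE31 and TA31 formed a run of means from 4.83 down to 4.44 in which each source overlapped with the one above.

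MYH8 showed the same 4 cultures on top. Its means were 8.41 ± 0.10 in TB31 (SD, n = 2 arrays), 8.15 ± 0.20 in TD31 (n = 3), 6.23 ± 0.15 in TA38 (n = 3) and 5.37 ± 0.30 in TB38 (n = 3). The other 25 arrays lay between 2.94 and 4.28. TB31 and TD31 were adjacent, with their nearest arrays both at 8.34. MYH3 and MYH8 lie in 1 myosin cluster, with MYH4, MYH1 and MYH2 between them in that annotation, and correlated at r = 0.95 over the 13 source means. Myosin heavy chain genes are close in sequence, and cross-hybridisation between their probe sets was not tested.

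MYL1 read 11.03 and 10.90 in TB31 and 10.97, 10.87 and 10.93 in TD31, which overlapped. TA38, at 7.89, 7.31 and 7.45, and TB38, at 7.76, 7.62 and 7.27, overlapped with each other and lay 2.98 log2 units lower. The light chain then continued down through cultures that were low in MYH8: TC31 at 5.50 ± 0.16, TE31 at 5.02 ± 0.09 and TC38 at 4.50 ± 0.11 (SD, n = 3 arrays each), none overlapping with the next. TA31, at 4.10, lay within the skin arrays, which ran from 3.86 to 4.31, with a median of 4.01. The ESC arrays lay between 3.57 and 4.10.

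ACTC1 was high in ESCs as well. Its signal was 12.58 and 12.74 in TB31 and 12.61, 12.45 and 12.49 in TD31. The ESC arrays came next, with 11.19, 11.67 and 12.18 in C3106 and 11.47 and 11.72 in C3806. TA38 at 11.17 ± 0.05, TB38 at 10.93 ± 0.16 and TA31 at 10.25 ± 0.08 (SD, n = 3 arrays each) followed. The highest TA38 array, at 11.21, overlapped with C3106, and the 3 cultures did not overlap with each other. TC31 and TC38 overlapped at 8.72 and 8.63, and the skin arrays ran from 7.34 to 8.18, with TE31 among them at 7.61. TA31 was thus high in ACTC1 while it was the lowest of all 13 sources in MYH3.

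TNNC2 was the other gene with a high signal in ESCs. It read 10.55 and 10.60 in TB31 and 9.14, 9.12 and 9.30 in TD31. The C3106 arrays followed at 8.58, 8.52 and 8.82, and those of C3806 at 8.47 and 7.59, the first of which is the array with the actin gap of 3.89. TA38 at 7.85 and TB38 at 7.84 overlapped with C3806. All other sources lay at 5.78 to 6.23, skin included. ACTC1 and TNNC2 correlated with each other at r = 0.90 over the 13 source means, and with MYH3 at 0.54 and 0.66.

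**Figure D2:**
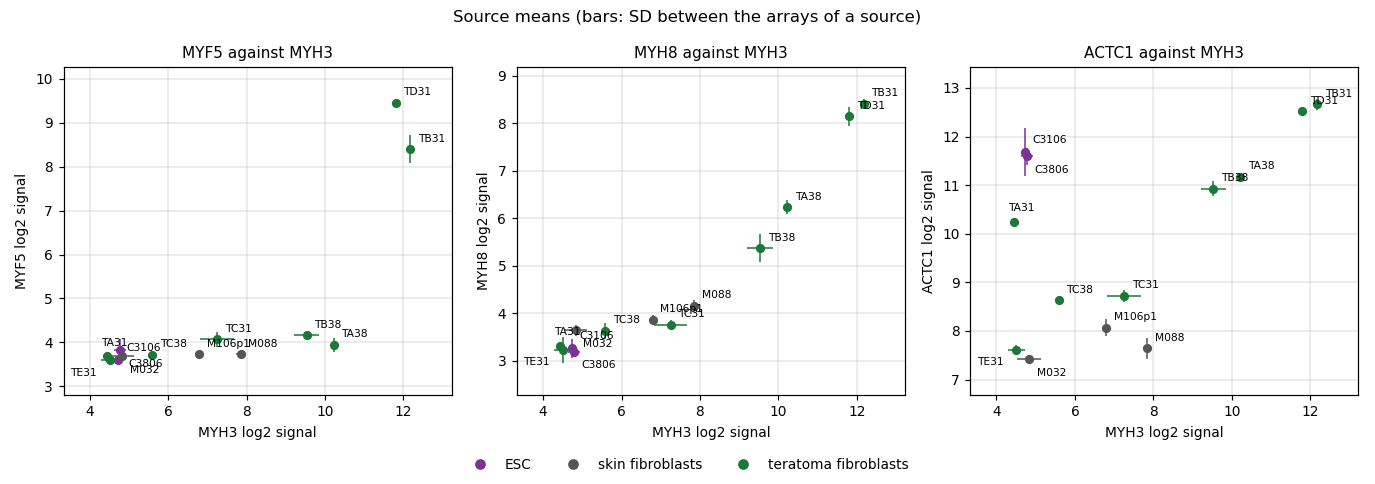
Source means of MYF5, MYH8 and ACTC1 (y axes, log2 signal) against MYH3 (x axis, log2 signal) in the 13 sources, with bars for the SD between the arrays of a source. MYF5 stays near 4 in TA38 and TB38, MYH8 rises with MYH3 over the 4 highest cultures, and ACTC1 is high in both ESC lines at a low MYH3 signal.

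Among all genes the members varied widely between sources. The distance from the lowest to the highest source mean was 7.74 log2 units for MYH3, larger than for 99.8% of the 14132 genes, 7.25 for MYL1, 5.87 for MYF5, 5.24 for ACTC1, 5.22 for MYH8, 4.79 for TNNC2, 3.30 for MYF6 and 2.40 for MYOD1. The median gene spanned 0.82. The largest SD between arrays within a source was 0.62 for any of the 8 genes, in TNNC2 of C3806.

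Each teratoma culture was then set against the mean of the 3 skin cultures, to ask which cultures differed from ordinary fibroblasts in these genes. The fit was limma's moderated linear model on the 36 arrays with the 13 sources as groups. Calls needed an adjusted p (Benjamini-Hochberg, over the 14132 genes) under 0.05 together with a log2 difference of 1 or more in either direction. The spread in this fit is that between arrays of a source, which may be technical, so a call says that a culture differs and not that teratoma cultures as a kind do. The 8 comparisons share the same skin arrays and are given side by side.

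In TB31, 8 of the 8 genes were called higher, where 3.78% of all genes were called higher and 2.53% lower. MYL1 was higher by 6.92 (SE 0.13, adjusted p = 2.26e-25) and MYH3 by 5.69 (SE 0.15, adjusted p = 7.8e-22). ACTC1 differed by 4.96, TNNC2 by 4.72, MYF5 by 4.69, MYH8 by 4.53, MYF6 by 2.73 and MYOD1 by 2.14. The median of the 8 was 4.70, beside -0.01 for all genes. These values rest on 2 arrays. With all 39 arrays under their labels the 8 genes stayed called, at smaller differences of 3.83 for MYL1, 3.44 for MYH3, 2.57 for MYF5 and 1.36 for MYOD1.

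In TD31, 7 of the 8 genes were called higher, against 4.44% of all genes called higher and 3.51% lower. MYL1 differed by 6.88 (SE 0.11, adjusted p = 2.38e-27), MYF5 by 5.74 (SE 0.09, adjusted p = 5.52e-28) and MYH3 by 5.31. ACTC1 differed by 4.81, MYH8 by 4.26, TNNC2 by 3.33 and MYF6 by 3.08. MYOD1, at 0.77 (SE 0.09, adjusted p = 8.2e-08), passed on p and not on size. The median was 4.53, beside -0.02 for all genes.

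TA38 and TB38, cultures of the female line, had 5 called genes each, and these were in both cases the 5 sarcomere genes. In TA38, 3.23% of all genes were called higher and 1.51% lower. MYH3 differed there by 3.74 (SE 0.13, adjusted p = 2.91e-19), MYL1 by 3.51, ACTC1 by 3.46, MYH8 by 2.34 and TNNC2 by 1.99. In TB38, 3.04% were called higher and 3.18% lower, and the differences were 3.50 for MYL1 (SE 0.11, adjusted p = 4.09e-20), 3.22 for ACTC1, 3.05 for MYH3, 1.99 for TNNC2 and 1.48 for MYH8. The 3 regulators passed on p in both cultures but stayed small: MYF5 0.24 and 0.45, MYF6 0.30 and 0.53, and MYOD1 0.48 and 0.30 in TA38 and TB38. With all 39 arrays 3 genes stayed called in each, and TNNC2 was lost in both, at 1.63 and 1.62, with MYL1 of TA38 at 2.77 and MYH8 of TB38 at 1.05.

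The remaining 4 cultures had 0 to 2 of the 8 genes called. TC31, with 3.32% of all genes called higher and 2.38% lower, was higher in MYL1 by 1.46 (SE 0.11, adjusted p = 1.73e-11) and in ACTC1 by 1.01. The ACTC1 call sat at the size limit, fell to 0.97 to 1.00 when any of 5 arrays was left out (a or c of M088, b of M106p1, a or b of TC31), and neither gene was called with all 39 arrays. Without array c of TC31, MYH3 was called there as well, at 1.01. TA31, with 3.62% called higher and 2.43% lower, was higher in ACTC1 by 2.54 (SE 0.12, adjusted p = 3.55e-16) and lower in MYH3, at -2.05. With all 39 arrays ACTC1 was at 2.04 and lost its call.

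TC38, with 3.52% called higher and 3.11% lower, had 0 of 8 genes called in limma, although 5 had an unadjusted p under 0.05. Of the 8, 4 passed on adjusted p and not on size, among them ACTC1 at 0.92 and MYH3 at -0.90. TE31, with 1.33% called higher and 1.18% lower, had none of the 8 called higher and MYH3 called lower, at -1.98. Its MYL1 difference of 0.98 (SE 0.11, adjusted p = 1.29e-07) lay just under the size limit. It passed at 1.02 with the replicate letter as a block, at 1.01 without array e of M106p1 and at 1.03 without array a of TE31. The lower MYH3 in TA31 and TE31 is relative to a skin mean that M088 and M106p1 raise. M032 at 4.83 overlapped with TE31 at 4.51 in its arrays. The TA31 arrays, at 4.49 or lower, lay just below the lowest M032 array, at 4.55.

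**Figure D3:**
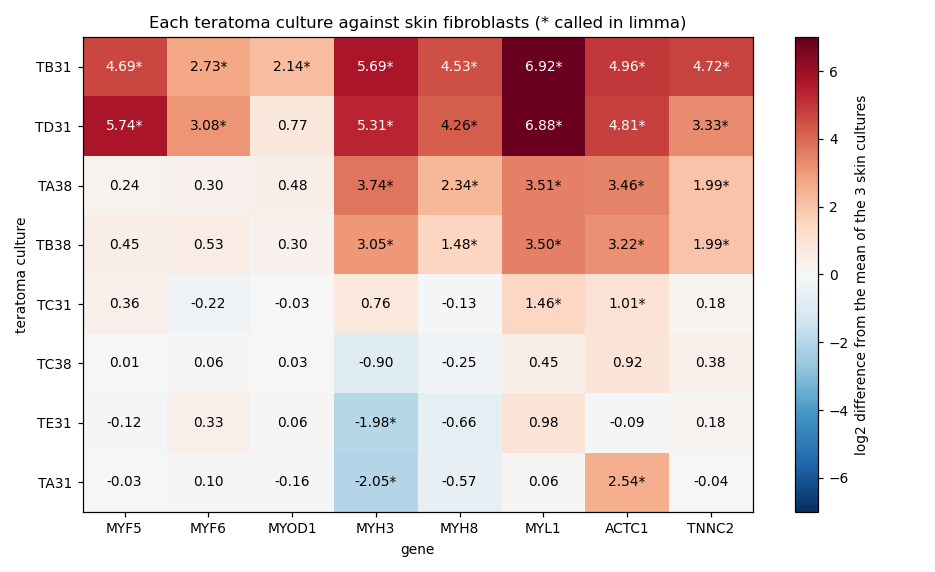
Log2 difference of each teratoma culture (rows) from the mean of the 3 skin cultures for the 8 genes (columns, regulators on the left), with a star where the gene was called in limma. All 8 genes are starred in TB31 and 7 in TD31, and in TA38 and TB38 the stars are on the 5 sarcomere genes.

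Cultures of a single line were compared with limma's F test in the same fit, with a range of culture means of at least 1 as the size limit. Among the 5 cultures of line C3106, 8 of the 8 genes were called, where 11.6% of all genes were. The ranges ran from 2.30 for MYOD1 to 7.74 for MYH3, with a median of 5.12 beside 0.35 for all genes. Among the 3 cultures of line C3806, 5 of the 8 were called, where 5.09% of all genes were, and the regulators MYF5, MYOD1 and MYF6 had ranges of 0.44 to 0.46. With all 39 arrays, 1 of these 5 genes stayed called. Among the 3 skin cultures, 1 of the 8 was called, MYH3 with a range of 3.01 (adjusted p = 1.5e-14), where 8.77% of all genes were, and the next largest range was 0.65 for ACTC1.

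With the culture as the unit of replication, no member was called between teratoma and skin fibroblasts or between ESCs and teratoma fibroblasts, and ESCs were not tested against skin. This fit took the 13 source means in 5 classes (each ESC line, the teratoma cultures of each line, and skin) and asked whether teratoma fibroblasts as a kind differ from skin. In limma 0 of the 8 genes were called, 1 had an unadjusted p under 0.05, and 0.658% of all genes were called higher and 0.545% lower. ACTC1 differed by 2.59 (SE 1.07, adjusted p = 0.183), MYL1 by 2.87 (SE 1.55, adjusted p = 0.306) and MYH3 by 1.75 (SE 1.87, adjusted p = 0.66). The median of the 8 was 1.45, beside 0.01 for all genes. With the arrays as units and the source as a random block, 3 genes were called: MYL1 at 2.83, ACTC1 at 2.58 and TNNC2 at 1.52. That fit used a single correlation between arrays of a source, 0.47, for all genes. In MYL1 the SD was at most 0.30 between arrays of a source and 2.74 between teratoma culture means. The fit thus counted arrays of such a gene as more independent than they were, and its calls do not rest on the culture as the unit.

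Between ESCs and teratoma fibroblasts, 0 of the 8 genes were called and 0 had an unadjusted p under 0.05 in the same limma fit, while 6.28% of all genes were called higher and 8.18% lower in ESCs. The differences ranged from -3.49 for MYH3 (SE 2.17, adjusted p = 0.244) to 1.34 for ACTC1 (SE 1.24, adjusted p = 0.446), the only member besides TNNC2, at 0.91, with the higher mean in ESCs. With the source as a random block, MYH3 at -3.43, MYL1 at -3.09 and MYH8 at -1.96 were called, under the same limit of a single correlation for all genes. Between the teratoma cultures of line C3806 and line C3106, 0 of the 8 were called in limma, 0 had an unadjusted p under 0.05 and 0 were called with the random block, and 0.0354% of all genes were called higher and 0.00708% lower. MYF5 had the largest difference, at -1.89 (SE 1.32, adjusted p = 1), and the other 7 genes lay between -0.91 and 0.41. These differences moved when a single culture was left out: MYF5 ranged from -0.99 (without TD31) to -2.46 (without TE31), MYH3 from -0.49 (without TA31) to 1.84 (without TC38), MYL1 from -1.57 (without TA31) to 0.25 (without TC38) and ACTC1 from -0.79 (without TE31) to 0.70 (without TC38). In all 3 comparisons the SE reflects the distance between cultures of 1 class described above.

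The wider muscle programme was read from 7 lists of 97 measured genes that exclude the members. Genes of these lists were called higher than skin in 20 of 97 cases in TB31 (20.6%) and 18 of 97 in TD31 (18.6%), beside the 3.78% and 4.44% of all genes given above. The counts were 9 in TA38 and 9 in TB38 (9.28% each, beside 3.23% and 3.04% of all genes), 6 in TC38 (6.19%, beside 3.52%) and 1 in TE31 (1.03%, beside 1.33%). In TA31 and TC31 they were 4 each (4.12%), near the 3.62% and 3.32% of all genes. More genes were called lower than higher in TC38 (11), TA31 (7), TC31 (7) and TE31 (6), and 5 in TA38 and 7 in TB38 were called lower. Most genes of the lists did not move: their median difference was 0.07 in TB31 and 0.05 in TD31, beside -0.01 and -0.02 for all genes, and 5 of the 97 were called lower in each.

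Among the partners of the myogenic factors, 2 of 14 were called higher in TB31 and 1 of 14 in TD31, beside 3.78% and 4.44% of all genes. EYA4, a cofactor of homeobox factors that act above MYF5, was called higher in 7 of the 8 cultures, by 1.44 in TB38 to 2.63 in TB31, and was not called in TE31, at -0.36. A second EYA4 probe set differed by 0.47 in TB31 and was not called there. PAX3 and PAX7, the factors of muscle progenitors, were flat, at 6.79 to 7.30 for PAX3 and 5.99 to 6.17 for PAX7 over the 13 sources. MSC, a repressor of myogenic factors, was called higher in TB38 (1.41) and TC38 (1.27). In ESCs, 6 of the 14 genes were called lower than in teratoma fibroblasts, among them MSC (-2.57), MEF2C (-2.15), ID3 (-2.04) and MEF2A (-1.81), and none higher.

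Of the thin filament genes, 5 of 15 were called higher in TB31 and 5 of 15 in TD31, and none lower. The inhibitory subunits of troponin, TNNI1 of slow and TNNI2 of fast fibres, differed by 3.61 and 3.31 in TB31 and by 3.09 and 2.66 in TD31. TNNT2, the cardiac troponin T that embryonic skeletal muscle also makes, differed by 3.41 and 3.31, and TNNC1, troponin C of slow fibres and heart, by 2.01 and 1.71. TNNC1 was far apart in skin, at 6.82 in M032, 8.69 in M106p1 and 10.54 in M088, close to 10.69 in TB31 and 10.40 in TD31. TNNI1 and TNNT2 were also the 2 genes called higher in TA38, at 1.60 and 2.05, and TB38, at 1.61 and 2.40, and TNNT2 was called in every culture but TE31. A second TNNI1 probe set differed by 0.32 in TB31, and 1 of the 3 TNNT2 probe sets differed by -0.08 there. SMPX, a small muscle protein, was high in skin, at 8.13 to 8.71, and called lower in 5 cultures, at -4.65 in TA31, but not in TB31 (0.78), TD31 (0.72) or TA38.

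The thick filament list moved in both directions. In TB31, 3 of 14 genes were called higher and 3 lower, and in TD31 2 higher and 3 lower. MYL4, the light chain of embryonic muscle and atrium, was higher by 2.67 in TB31 and 1.90 in TD31, and MYBPH, a myosin-binding protein, by 2.17 in TB31. MYH2, a heavy chain of adult fast fibres, was called lower than skin in all 8 cultures, from -1.27 in TE31 to -3.86 in TD31, and was the only gene of the 7 lists called between teratoma and skin fibroblasts as kinds, at -2.48 (SE 0.54, adjusted p = 0.0387). Its signal was 11.00 to 11.74 in the skin cultures, 7.43 to 10.01 in the teratoma cultures and 5.41 and 5.53 in the ESC lines. MYOM1, a protein of the M-band, was called lower than the skin mean in 7 of the 8 cultures, not in TE31. Skin ran from 7.55 in M032 to 9.53 in M088 and 10.52 in M106p1. TB31, at 8.17, TA38, at 8.00, and TC31, at 7.60, lay above M032.

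Of the Z-disc and cytoskeleton genes, 7 of 23 were called higher and 2 lower in each of TB31 and TD31. CSRP3, the muscle LIM protein, differed by 4.68 and 3.67, MYOT by 3.47 and 2.56, and ACTN2, the alpha-actinin that anchors thin filaments, by 3.32 and 3.21. All 4 ACTN2 probe sets were called higher in TB31, while a second CSRP3 probe set with a mean signal of 3.95 differed by 0.02. CSRP3 was also higher in TA38 (2.80) and TB38 (2.14). MYOT, at 3.65 to 4.59 elsewhere, read 7.19 in TB31 and 6.28 in TD31. The small heat shock protein CRYAB was called lower, at -2.57 in TB31 and -2.12 in TD31. This was not particular to them: CRYAB read 10.14 in TC38, below 10.44 in TB31 and 10.89 in TD31. It read 11.70 to 12.14 in the remaining teratoma cultures and 12.78 to 13.34 in skin. KLHL41, at 8.61 to 11.02 in skin, was called lower at -5.46 in TA31 and -4.86 in TC38.

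Few genes of calcium handling and of the nerve contact were called. CASQ2, a calcium-binding protein of the sarcoplasmic reticulum, differed by 2.74 in TB31, 2.81 in TD31 and 1.22 in TB38, and PVALB, a calcium buffer of fast fibres, by 2.37, 1.69 and 1.38 there and by 2.25 in TA38. These were the 2 of 12 genes called higher in TB31, TD31 and TB38. CHRNA1, the alpha subunit of the acetylcholine receptor of muscle, was the 1 of 11 genes of its list called higher in each culture but TE31, by 4.33 in TD31, 3.96 in TB31, 2.65 in TA38, 2.50 in TB38 and 1.01 to 1.66 in TC38, TC31 and TA31. Of 8 muscle metabolism genes, 1 was called in 1 culture, FABP3 in TA38 at 1.48.

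**Figure D4:**
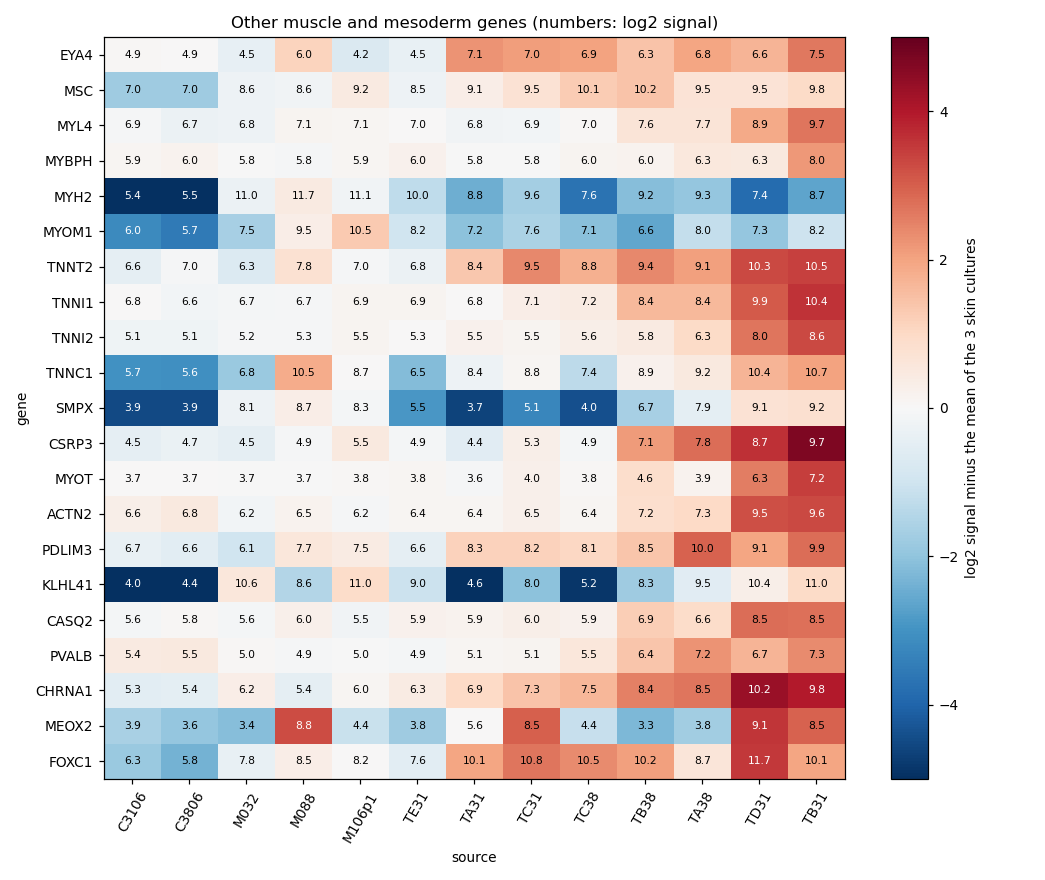
Genes of muscle and mesoderm lists (rows) in the 13 sources (columns), with the log2 signal printed and the colour giving its difference from the mean of the 3 skin cultures. TNNT2, TNNI1, TNNI2, CSRP3, MYOT, ACTN2, CASQ2 and CHRNA1 are highest in TB31 and TD31, while MYH2 is below skin in all 8 teratoma cultures.

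Markers of other tissues were read in the same comparisons. Of 10 paraxial mesoderm genes, MEOX2 was called higher in TD31 (3.56), TC31 (2.98) and TB31 (2.95), and lower in TA38, TB38, TC38 and TE31, and 1 skin culture, M088, had a MEOX2 signal of 8.80 beside 3.39 and 4.41 in the others. FOXC1 was called higher in 6 cultures, by 1.97 in TA31 to 3.55 in TD31, and FOXC2 in TD31 by 1.54. Of 11 heart muscle genes, none was called in TB31, TD31, TB38, TA31 or TC38. TA38 was higher in RYR2 (2.09), NPPB (1.31) and HAND2 (1.28), TE31 in RYR2 (2.09) and HAND2 (1.34), and TC31 in HAND1 (1.98). NPPB was also higher in ESCs than in teratoma fibroblasts, by 3.28.

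Smooth muscle genes were called lower in differing numbers, from 1 of 10 in TE31 to 7 in TD31. Of the 10, 7 were called lower and 1 higher in TD31, and 3 lower and none higher in TB31, led by SYNPO2 at -3.63 and -2.06 and MYOCD at -2.27 and -1.39. The number called lower was 6 in TC31, 5 in TB38, 4 in TC38, 3 in TA31 and 2 in TA38. SYNPO2 read 4.78 in TC31 and 5.54 in TB38, beside 5.07 in TD31 and 6.64 in TB31. It read 6.88 to 8.80 in the remaining teratoma cultures and 8.45 to 9.14 in skin. A second SYNPO2 probe set differed by -0.27 in TD31 and -0.35 in TB31. MYH11, the smooth muscle myosin, was called lower than the skin mean in all 8 cultures. The skin cultures were far apart in it, at 8.48 in M032, 10.35 in M088 and 11.16 in M106p1. TE31, at 8.62, lay above M032, and TA38, at 8.41, close to it. The fibroblast genes changed little: 2 of 10 were called lower in TD31, FAP (-1.62) and PRRX1 (-1.25), and 1 higher in TB31, COL1A1 (1.11). In TA38 and TE31, 1 of 10 was called lower in each. PRRX1 read 10.48 in TE31, beside 10.45 in TD31.

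The neural gene PAX6 and SOX2, which is on the pluripotency list, divided the cultures in another way. PAX6 read 5.28 in TB31 and 5.25 in TD31, close to 4.54 to 4.97 in skin, and 6.37 to 11.05 in the 6 other teratoma cultures, all of which were called higher than skin. SOX2 read 4.81 in TB31, 4.78 in TD31 and 5.02 in TE31, and 7.90 to 10.90 in the other 5 cultures. TA38 and TB38 were thus high in the sarcomere genes and in PAX6 and SOX2, whereas TB31 and TD31 were high in the sarcomere genes and low in PAX6 and SOX2. DCX, also on the neural list, did not follow this division. It read 9.47 in TB31, above every other source, 8.86 in TA38, 8.24 in TE31 and 7.15 in TA31. DCX read 6.3 in TD31, 5.93 in TC38, 5.62 in TB38 and 5.24 in TC31, within the skin range of 5.06 to 6.55. Of 3 SOX2 probe sets the others differed by 0.20 and 0.49 in TA38 and were not called there. Over the whole neural list of 8 genes, 1 to 4 were called higher in each culture, and the list's mean signal ran from 6.97 to 8.38 over the teratoma cultures and from 7.13 to 7.32 over skin. The part of neural or other cells in the muscle gene signals was not tested.

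Genes of other marker lists were called too, so a raised share was not particular to the muscle lists. In TB31, 2 of 10 cartilage and bone, 2 of 10 paraxial mesoderm and 2 of 8 neural genes were called higher. There 0 of 6 keratinocyte and 0 of 6 adipocyte genes were, beside 3.78% of all genes. In TA31, TB38, TC31 and TC38, 2 of 10 cartilage and bone genes were also called higher, beside 3.04% to 3.62% of all genes. These lists are short. DSC3, 1 of 6 keratinocyte genes, was called higher in TD31 (4.17), TC31 (1.82), TA31 (1.30) and TB38 (1.05). Of 9 endothelial genes, PECAM1 was called lower in 7 cultures. TEK was called higher in TD31 (2.37), TB31 (2.07) and TC31 (2.01) and lower in TB38 (-1.77) and TC38 (-1.20). Skin itself was far apart in TEK, at 5.43 in M032, 9.91 in M088 and 7.41 in M106p1. TB31, TC31, TB38 and TC38 lay within that range, and TD31, at 9.95, next to M088. ERG was called higher in TA38 (1.03) and EMCN in TB38 (1.20). Of 10 cartilage and bone genes, SPP1 was called higher in 7 cultures, by 1.13 in TC38 to 4.07 in TC31. In TC38 SPP1 read 7.64, below the skin culture M088 at 8.04. COL11A1 was called higher in TA31, TB31, TB38, TC31 and TC38, by 1.08 to 1.25, and RUNX2 lower in TD31 (-1.67). The skin mean of COL11A1 was lowered by M032, at 10.03, beside 12.23 in M088 and 12.06 in M106p1. Of 6 adipocyte genes, none was called in limma in any culture.

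The genes whose source means ran closest to those of the members were sought among 2288 other genes that spanned at least 2 log2 units over the 13 sources. These correlations are descriptions over 13 means that share arrays and cultures. Closest to MYH3 were CSRP3 (r = 0.955), ASB5 (0.935), TNNI1 (0.915), HJV (0.907), CASQ2 (0.89), TXLNB (0.889), MYL4 (0.886), CAVIN4 (0.878), C5H4orf54 (0.869) and ACTN2 (0.848). Without TB31 and TD31, CSRP3 stood at 0.912 and ACTN2 at 0.725. Closest to MYL1 were TNNI1 (0.989), CASQ2 (0.978), CSRP3 (0.971), TXLNB and ASB5 (0.966 each), and without those 2 cultures TNNI1 remained at 0.97.

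Closest to MYF5 were ACTN2 and TXLNB (0.964 each), MYOT (0.95), TNNI2 (0.944) and CASQ2 (0.942). Leaving out TB31 and TD31 lowered these to 0.681, 0.78, 0.821, 0.52 and 0.758. The genes closest to ACTC1 were PKIA, an inhibitor of protein kinase A (0.873), SPSB2 (0.859), LOC717047 (0.858), VASH2 (0.853) and TSPAN7 (0.843). SPSB2 and TSPAN7 had their highest mean in an ESC line, at 10.98 and 9.61, PKIA and LOC717047 in TD31, at 10.34 and 11.56, and VASH2 in TB31, at 10.76. None of these 5 was among the closest genes of MYH3, MYL1 or MYF5.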

How the data were processed

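Per the submitters' processing notes, the arrays were processed with GCOS and RMA. The sources used here give neither versions nor settings. The authors deposited log2 signals of 52865 probe sets on each array. The platform annotation names 1 gene for 24956 probe sets that are not controls (14132 genes), and several or no genes for the rest. A gene with several probe sets was represented by that with the highest mean. RMA makes array distributions alike, and no depth applies.

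Fits of the 36 arrays and of the 13 source means used limma 3.58.1 (R 4.3.3) with 23 and 8 residual degrees of freedom, two-sided tests and no filter on dim genes. Each fit was tested on simulated data with 200 changed genes. The array fit recovered 200 with 0 false calls, and the source fit 193 with 3 false calls. The changed genes were drawn at random from all genes. Recovery of genes that vary between cultures as widely as the members was not tested. All members were described. From each list and comparison up to 4 called genes with the largest difference could be named, and the closest genes by Pearson correlation. SMPX, KLHL41, MYOT, PAX3, PAX7 and second probe sets were also named for levels after their values were seen. The members and lists were chosen with earlier results of these data known.

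Alternatives were all 39 arrays, the mean of a gene's probe sets, a dim filter, quantile normalization, a variance trend, a random source block, a replicate block and leaving out arrays or sources. Replicate letters did not pair arrays: the deviations of arrays with the same letter correlated at a median r of 0.05 (-0.54 to 0.60).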

Additional observations from a re-analysis of the deposited data

Results flagged for a closer look

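In each of the 8 genes, the 5 teratoma culture means of line C3106 and all 8 teratoma culture means were searched for a culture far from the rest by Dixon's criterion, which gave 16 groups. A single one was found: MYOD1 in TB31, at 7.57, lay 1.37 log2 units above the next of the 8 cultures, 0.596 of the whole range of 2.30. Chance alone marks about 1 in 20 such groups. The criterion looks at the gap between the 2 values at an end, so 2 far cultures hide each other. MYF5 was thus not marked, although TD31 at 9.46 and TB31 at 8.40 were far above TB38 at 4.16. The search therefore does not show that MYOD1 alone had far cultures.

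The array labelled M106p1f, a skin fibroblast array that entered only the fits of all 39 arrays, carried muscle signal above every skin array used. It read 11.61 for MYH3, 10.83 for MYL1, 9.01 for MYF5, 12.53 for ACTC1, 7.14 for MYF6, 7.76 for MYH8 and 9.05 for TNNC2, which was 2.58 (MYF6) to 6.52 (MYL1) log2 units above the highest of those arrays. Over the genes outside the muscle lists its profile was closest to TD31, at r = 0.959.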

How the results depend on the processing

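No result reversed its direction and call under the settings tried. With all 39 arrays under their labels, the genes called fell from 170 to 52 between teratoma and skin fibroblasts, from 892 to 232 in TB31, from 806 to 530 in TC31, from 720 to 466 among the cultures of line C3806 and from 1239 to 747 among skin cultures. The members called fell from 2 to 1 in TA31, from 5 to 3 in TA38 and in TB38, from 2 to 0 in TC31 and from 5 to 1 among the cultures of line C3806. These fits hold the 3 arrays whose profiles are those of other sources. With the source as a random block (correlation 0.47, the same for all genes), 589 genes and 3 members were called between teratoma and skin fibroblasts. The same fit called 3 members between ESCs and teratoma fibroblasts, and 40 genes in place of 6 between the lines. Quantile normalization left 1 member called in TC31, ACTC1 being at 0.94.

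Leaving out a source at a time gave 73 (without M032) to 392 genes (without TE31) between teratoma and skin fibroblasts, with 96 without M106p1, 89 without TA31, 91 without TB31, 94 without TB38 and 85 without TC38, and no member called in any. Between the lines it gave 2 to 8 genes. Leaving out an array at a time gave 1 to 3 members called in TC31 and 1 to 2 in TE31, and the same number of members as given above in the other 6 cultures and the 3 F tests. The replicate letter as a block raised the members called in TE31 from 1 to 2 and changed no other count by over 1.5 times. The arrays sharing a letter share only a letter. The mean of a gene's probe sets, the dim filter and the variance trend changed no count by over 1.5 times. For the 8 members the first of these could not change a difference, since each has 1 probe set. The dim filter kept genes whose highest source mean was at least 6. All 8 members passed it, MYF5, MYF6 and MYOD1 only through TB31 and TD31, so it was no check on them. Whether low signals, such as MYL1 and MYF5 in skin, lay above background was not tested, so differences from them are given on the log2 scale without a fold.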
